A study of Talaromyces pinophilus with 6 samples.

Results

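*TP05519* to *TP05525* are 7 consecutively numbered genes of the filamentous fungus *Talaromyces pinophilus*, among them a putative 2,4-dichlorophenol 6-monooxygenase gene, *TP05523*. They are 7 of the 11632 genes listed in any library, and they were chosen by their gene numbers and by their lower transcript levels in the mutant Δ*TP05746* than in its parental strain Δ*TpKu70*. That difference is therefore given below as a description, with no test. Each strain was represented by 3 RNA sequencing libraries from mycelium grown on glucose and then kept for 12 h on soluble corn starch at 1% (w/v). The strain Δ*TpKu70* is strain 1-95 without the *TpKu70* gene (genotype label TpKu70 KO), whose product acts in DNA end joining. Δ*TP05746* lacks both *TpKu70* and *TP05746* (label TP05746 TpKu70 double KO), the latter coding for a Zn2Cys6 protein, a type of transcription factor found in fungi. The question was which genes of the run, and of the genes numbered next to it, differ between these strains. Whether each library had its own culture is not given in the labels, and p-values therefore measure a spread that could be technical in origin.

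Fungal genes that act in one metabolic process often lie next to each other on a chromosome and are transcribed together. Flavin-dependent monooxygenases of the kind named in *TP05523* add a hydroxyl group to an aromatic ring, and in bacteria 2,4-dichlorophenol 6-monooxygenase turns a chlorinated phenol into a catechol. Monocarboxylate permeases, the annotation of *TP05522*, carry small organic acids across membranes. *TP05519* was assigned to glycoside hydrolase family 47 (GH47), which holds α-mannosidases that trim the sugar chains of glycoproteins. *TP05520*, *TP05521*, *TP05524* and *TP05525* were matched to hypothetical proteins of *Talaromyces cellulolyticus*, and no role is known for them here. All annotations are matches to proteins of other fungi and were not tested in *T. pinophilus*.

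Gene numbers stand in for position, since no genome coordinates of strain 1-95 were used here. The annotation gives one sign of their order. For 8 of the genes from *TP05514* to *TP05530*, 5 of them in the run, the closest protein was a numbered locus of a single *T. cellulolyticus* locus series. The locus numbers fell at all 7 steps, from 5619 for *TP05514* through 5613 for *TP05519* and 5602 for *TP05525* to 5594 for *TP05530*. Protein and promoter sequences of these genes were not analysed here.

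The libraries held 4091718 to 4696455 expected counts each. In the parental replicates 1, 2 and 3 the expected count of the deleted gene *TP05746* was 135, 42 and 28, and no mutant library listed it above 0. Across the 8522 genes tested, the log2 levels of Δ*TpKu70* replicate 1 had correlations of 0.898 and 0.89 with those of replicates 2 and 3, against 0.966 between these. Values without it are given below for the run as a whole and for some single genes. The 4 genes of conidium formation followed as markers of sporulating cells, part of a longer list in the paper, did not move one way. The paper reports other genes of that list in both directions, and these were not followed here. *TP10226*/*Asp* was higher in Δ*TP05746* and *TP05733*/*WetA* and *TP05897*/*RodA* were lower, while *TP10901*/*VosA* did not pass the test. Refitted with library totals and without each library, 7 fits in all, *WetA* lost its call in 6 and *RodA* in 5, and the log2 fold change of *TP10226* was 3.41, or 4.18 without Δ*TpKu70* replicate 1. Their summed level was 62.2 to 226 CPM (counts relative to the TMM-scaled size of each library) in Δ*TpKu70* and 1150 to 1319 CPM in Δ*TP05746*, most of it from *TP10226*. The part of such cells in the results below was not tested, and in bulk RNA fewer cells of a type and less RNA per cell cannot be told apart.

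The 7 genes fell into 3 levels of difference between the strains. *TP05520*, *TP05522*, *TP05523*, *TP05524* and *TP05525* were at 0.071% to 0.156% of their Δ*TpKu70* level in Δ*TP05746*. *TP05521* was at 0.883% and *TP05519* at 29.2%. Whether reads at around 0.1% of the parental level came from transcripts of the mutant was not tested, so the mutant counts of these genes are counts of assigned reads. All 7 were among the genes called lower, as were 20.5% of all genes tested, and nothing follows from that count because the members were chosen on the same contrast. Calls were made with edgeR's quasi-likelihood test on expected counts, where the adjusted p had to be 0.05 or less and the log2 fold change at least 1 in either direction. The median log2 fold change of the run was −9.66, against 0.0284 over all genes tested. When counts were scaled by library totals alone, these medians were −8.88 and 0.846, and without Δ*TpKu70* replicate 1 the median of the run was −9.55, with single genes between −10.64 and −1.81 and all 7 still called.

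**Figure D1:**
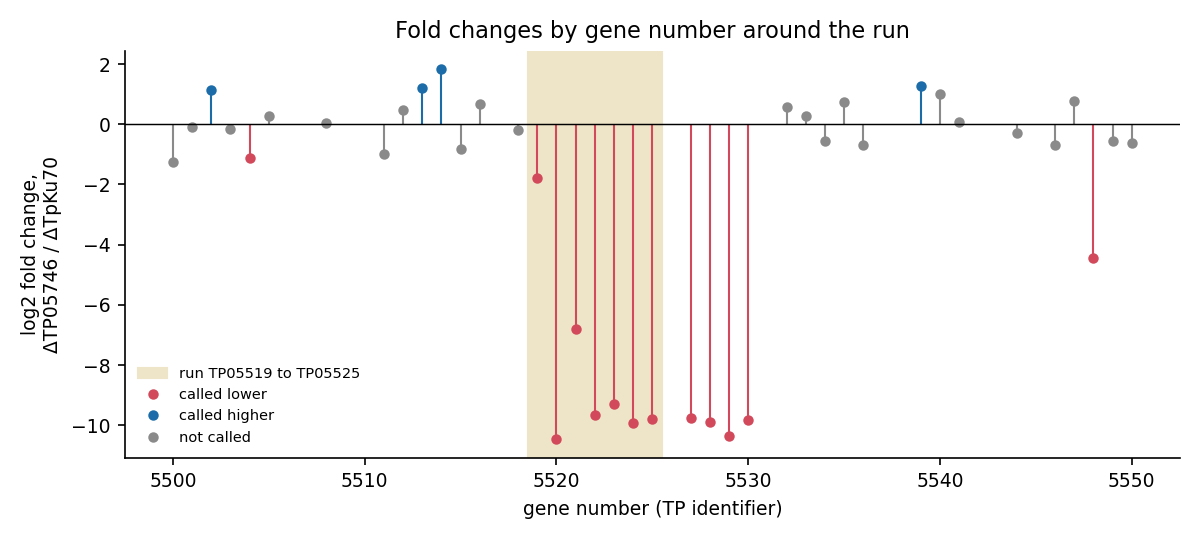
Log2 fold change of Δ*TP05746* over Δ*TpKu70* from edgeR for each tested gene, plotted against gene number, with the run shaded and colours marking genes called lower, called higher or not called. The 4 tested genes just below the run lie between −0.83 and 1.83, the run reaches −10.46 at *TP05520*, and low values go on past it to *TP05530*.

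*TP05519*, the GH47 gene at the low-numbered end, differed least. The parental libraries held 818, 803 and 570 expected counts of it, and the mutant libraries 330, 368 and 314. On the TMM scale this was 208 ± 27.1 CPM in the parental strain and 60.8 ± 3.80 CPM in the mutant (SD, n = 3), for a log2 difference of −1.78 (standard error 0.18). The libraries of the strains did not overlap. Its size depends on the scaling, for the log2 fold change was −0.95 with library totals and −0.995 with limma on log2(FPKM + 1), both short of the fold minimum.

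*TP05520*, of unknown role, followed it directly and differed most. Its expected counts were 11050, 13000 and 12434 in the parental libraries but 20, 10 and 11 in the mutant. The level went from 3542 ± 722 CPM to 2.49 ± 1.08 CPM (SD, n = 3), for a log2 difference of −10.46 (standard error 0.53). The lowest parental library, replicate 1 at 2716 CPM, was far above the highest mutant library at 3.73 CPM.

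*TP05521*, also without a known role, had a larger share of its parental level in the mutant than *TP05520* and *TP05522* on either side of it. It had 1686, 1517 and 1161 expected counts in the parental and 20.2, 15.5 and 25.7 in the mutant libraries, or 414 ± 35.9 and 3.70 ± 0.973 CPM (SD, n = 3). The log2 fold change was −6.81 (standard error 0.30). Its counts have decimals, as RSEM gives where reads fit more than 1 gene model, so its level is uncertain. The strains were nevertheless far apart in every library. The 95% counting interval of the level left in Δ*TP05746*, 0.674% to 1.14%, did not meet that of any other member. The other members below 1% had upper bounds of at most 0.297%. These intervals leave out the spread between libraries and the uncertainty of reads that fit more than 1 gene model.

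The permease gene *TP05522* had 1265, 793 and 777 expected counts in the parental libraries, and 3, 1 and 1 were left in the mutant. Its level in Δ*TP05746* was 0.111% of that in Δ*TpKu70*, with a 95% interval of 0.0362% to 0.260% for counting error, and its log2 fold change was −9.66 (standard error 0.40), or −10.33 without Δ*TP05746* replicate 1. Replicate 1 was the highest parental library for this gene, at 311 CPM against 235 and 253.

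The monooxygenase gene *TP05523* had expected counts of 1043, 1403 and 1194 in the parental strain, compared with 2, 6 and 1 in the mutant. The mean was 354 ± 85.6 CPM in Δ*TpKu70* and 0.534 ± 0.456 CPM in Δ*TP05746* (SD, n = 3), for a log2 difference of −9.29 (standard error 0.55). The level left was 0.156% (95% counting interval 0.0714% to 0.297%). Replicate 2 held 6 of the 9 mutant counts, and without it the log2 fold change was −10.18. In contrast to the permease gene, its lowest parental library was replicate 1, with 256 CPM against 417 and 389.

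*TP05524* and *TP05525*, both matched to hypothetical proteins, closed the run. For *TP05524* the parental libraries held 16345, 14150 and 14562 expected counts, which put it between rank 23 and rank 33 of all genes by FPKM, and the mutant libraries 41, 15 and 17. Its level went from 4321 ± 379 to 4.44 ± 2.77 CPM (SD, n = 3), with a log2 fold change of −9.92 (standard error 0.62), or −10.55 without Δ*TP05746* replicate 1. For *TP05525* they were 2064, 2115 and 2678 against 9, 2 and 1, with a log2 fold change of −9.79 (standard error 0.74). Both were thus abundant in every parental library, and neither was listed at 0 in any Δ*TP05746* library.

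**Figure D2:**
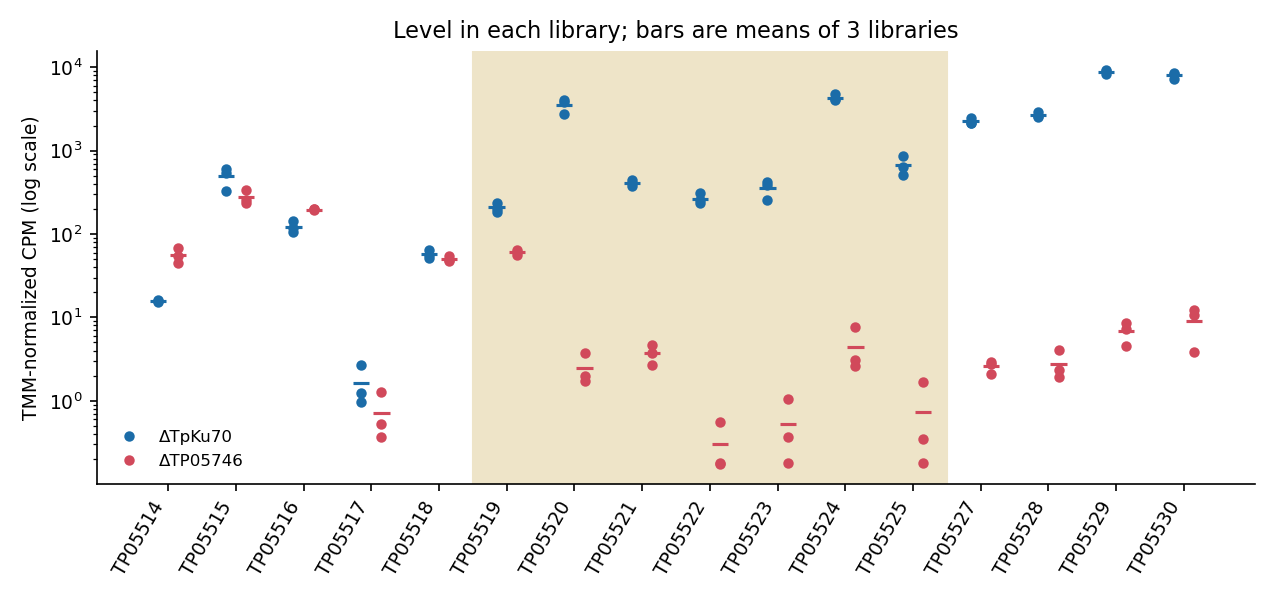
TMM-normalized CPM on a log scale in each of the 6 libraries for the 7 genes of the run (shaded), the 5 genes numbered below it and the 4 listed genes numbered above it, with bars at the means of 3 libraries. Points of both strains lie together for *TP05515* and *TP05518*, apart for *TP05519*, and further apart from *TP05520* onwards.

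Levels of different genes can be compared per length, on the FPKM scale (fragments scaled by gene length and by the number mapped). In Δ*TpKu70*, *TP05524* was highest at 2705 ± 194 FPKM and *TP05525* next at 2546 ± 412 FPKM (SD, n = 3), and their libraries overlapped. *TP05520* followed at 1118 ± 99.5 FPKM and *TP05521* at 233 ± 40.1 FPKM, each apart from its neighbours in this order. *TP05522* (122 ± 34.5 FPKM) and the monooxygenase gene *TP05523* (107 ± 16.2 FPKM) overlapped, and *TP05519* was lowest at 39.9 ± 7.11 FPKM. The monooxygenase gene was therefore one of the less abundant genes of the run. *TP05525* had fewer counts than *TP05520* but a higher FPKM, since the length behind its FPKM, worked out from the deposited counts and FPKM values, was 198 bases against 2430 for *TP05520*.

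In Δ*TP05746* the order by FPKM differed, with the limit given above on what the reads of genes near 0.1% stand for. *TP05519* was highest at 19.3 ± 1.51 FPKM, apart from all the others. *TP05524* and *TP05525* came next at 4.55 ± 2.64 and 4.32 ± 4.44 FPKM, and *TP05521* at 3.43 ± 0.873 FPKM (SD, n = 3). These 3 overlapped one another, and the value of *TP05525* rests on only 9, 2 and 1 counts. *TP05520* had 1.31 ± 0.522 FPKM, below *TP05521* in every library and overlapping *TP05525*, and *TP05522* and *TP05523* 0.227 ± 0.15 and 0.273 ± 0.244 FPKM, which rest on at most 6 counts in a library.

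**Figure D3:**
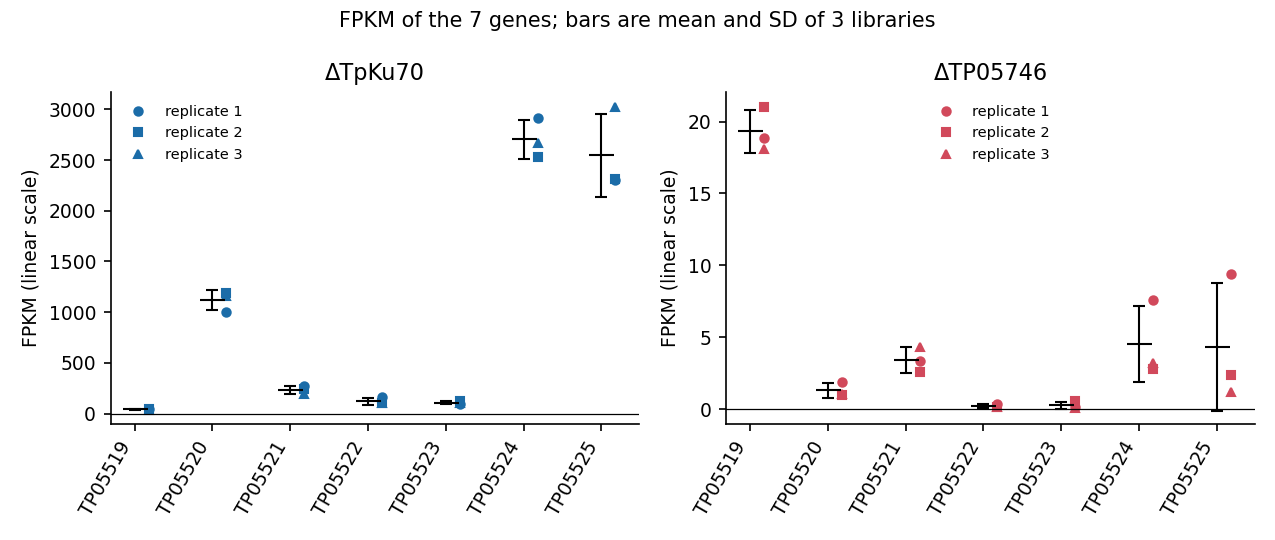
FPKM of the 7 genes in Δ*TpKu70* (left) and Δ*TP05746* (right), each on its own linear scale, with 1 symbol per library and bars for the mean and SD of 3 libraries. *TP05524* and *TP05525* are highest in Δ*TpKu70*, whereas *TP05519* is highest in Δ*TP05746*.

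The Δ*TpKu70* libraries held similar amounts of the run in spite of the distance of replicate 1 from the others over all genes. The 7 genes made up 0.739%, 0.719% and 0.725% of the expected counts in Δ*TpKu70* replicates 1, 2 and 3. On the TMM scale the sums were 8424, 10028 and 10877 CPM, so replicate 1 was lowest there. For single genes, the highest parental library had from 1.18 times (*TP05524*) to 1.72 times (*TP05525*) the CPM of the lowest. Replicate 1 was below both other parental libraries for *TP05520*, *TP05523*, *TP05524* and *TP05525*, above both for *TP05522*, and between them for *TP05519* and *TP05521*.

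**Figure D4:**
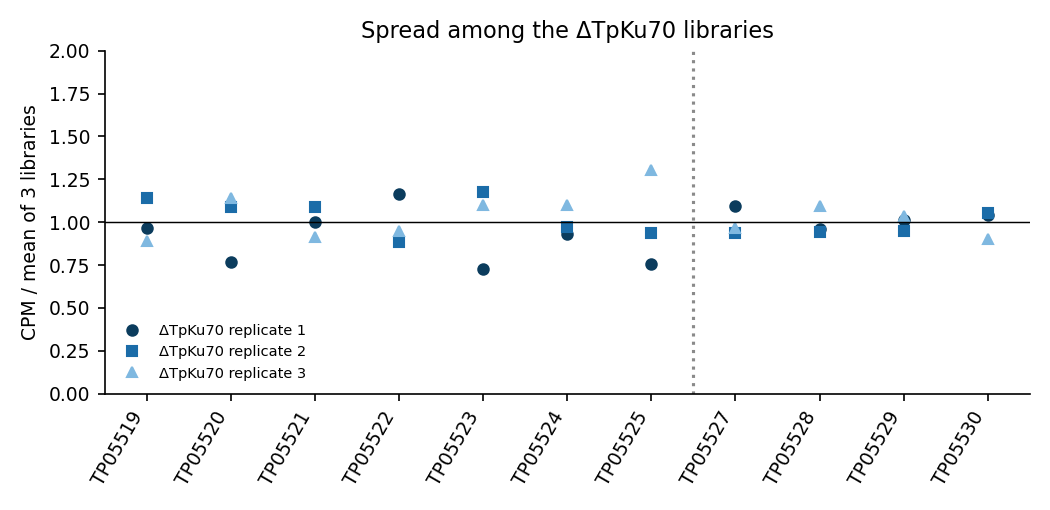
CPM of each gene in the 3 Δ*TpKu70* libraries divided by their mean, for the run (left of the dotted line) and the 4 listed genes above it. Within the run the values span 0.724 (*TP05523*, replicate 1) to 1.30 (*TP05525*, replicate 3).

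In Δ*TP05746* the 7 genes together made up 0.0104%, 0.00996% and 0.00891% of the counts, most of it *TP05519*. Without that gene, 95.2, 49.5 and 56.7 expected counts were left in replicates 1, 2 and 3. Replicate 1 was highest for 4 of the other 6 genes (*TP05520*, *TP05522*, *TP05524* and *TP05525*), and it had 9 of the 12 counts of *TP05525*. Without Δ*TP05746* replicate 1, the log2 fold change of *TP05525* was −11.15 and the median of the run −10.33.

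**Figure D5:**
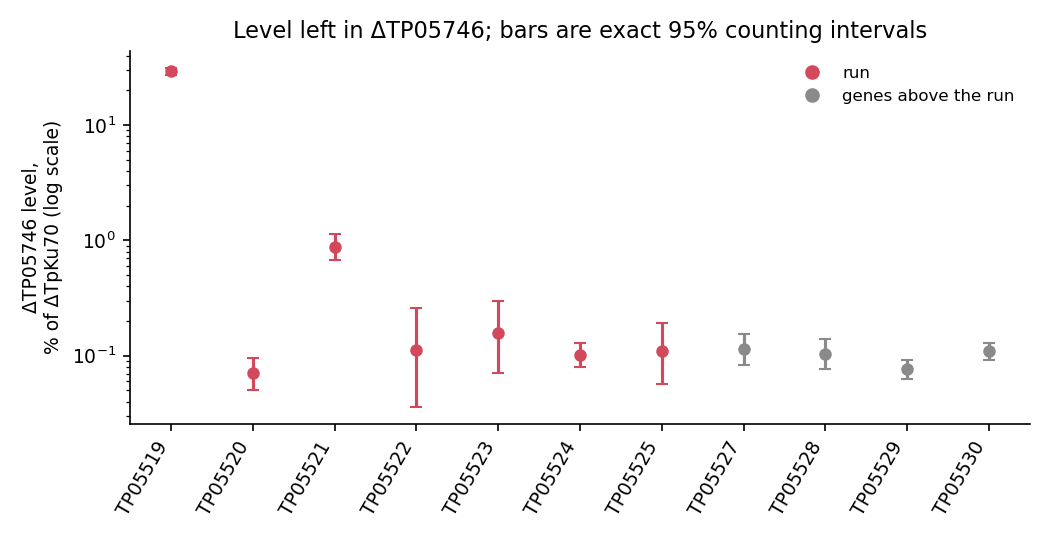
Level in Δ*TP05746* as a percentage of that in Δ*TpKu70* on a log scale, from summed counts and TMM-scaled library sizes, with exact 95% intervals that cover counting error only. *TP05519* stands at 29.2% and *TP05521* at 0.883%, and the other 5 genes of the run and the 4 genes above it lie between 0.071% and 0.156%.

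The genes numbered on either side of the run were then compared in the same fit, in which 38.7% of all genes were called higher or lower. Below the run, 1 of the 4 genes tested was called, and it was higher in Δ*TP05746*. This was *TP05514*, a hypothetical protein gene, with 62, 53 and 50 expected counts in the parental and 241, 313 and 378 in the mutant libraries. Its log2 fold change was 1.83 (standard error 0.22, edgeR adjusted p = 0.00128). *TP05515*, whose counts have decimals, had a log2 fold change of −0.83 (edgeR adjusted p = 0.0546) and overlapped between the strains. Among the alternatives it was called only without Δ*TpKu70* replicate 3, at −1.06. *TP05516* was at 122 ± 19.9 CPM in Δ*TpKu70* and 196 ± 3.88 CPM in Δ*TP05746* (SD, n = 3), for a log2 difference of 0.68 that was short of the fold minimum. With library totals it was 1.52 and past that minimum.

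*TP05518*, the nearest gene below the run, had 225, 215 and 160 expected counts in the parental strain, against 257, 308 and 270 in the mutant. On the TMM scale the strains overlapped, and the log2 fold change was −0.19 (standard error 0.17, edgeR adjusted p = 0.387). Its sign turned with the scaling, to 0.64 with library totals. *TP05517* had between 2 and 9 counts in each library and was not tested. From *TP05518* through *TP05519* to *TP05520*, the log2 fold change thus went from −0.19 through −1.78 to −10.46.

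Above the run the low levels continued. *TP05526* was listed in no library, and the other 4 genes, *TP05527* to *TP05530*, were all called lower in Δ*TP05746*, as they were without each single library. *TP05527*, annotated as a short-chain dehydrogenase (enzymes that oxidise or reduce alcohols and ketones), had 10044, 7127 and 6661 expected counts in the parental libraries and only 15, 12 and 16 in the mutant, a log2 fold change of −9.75 (standard error 0.35, edgeR adjusted p = 6.13e-05). *TP05528*, a conserved hypothetical protein gene, had a log2 fold change of −9.89 (standard error 0.46, edgeR adjusted p = 0.000168). *TP05529* and *TP05530*, both matched to hypothetical proteins, were more abundant than any gene of the run by counts, with means of 8819 ± 402 and 8070 ± 673 CPM in the parental strain, against 6.78 ± 2.05 and 8.95 ± 4.49 CPM in the mutant (SD, n = 3). Their log2 fold changes were −10.34 (edgeR adjusted p = 0.000168) and −9.81 (edgeR adjusted p = 0.00025), and the counts of *TP05530* have decimals.

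Together the 10 listed genes from *TP05520* to *TP05530* took 2.68%, 2.25% and 2.15% of the parental counts, and 0.00596%, 0.00287% and 0.00445% of those in the mutant libraries. By gene number, the stretch of tested genes all called lower ran from *TP05519* to *TP05530* and held 11 genes. Of 1093 such stretches in the whole table, counting single genes, 3 were longer. A limit of −6 on the log2 fold change was set after the values were seen. At or below it, the 10 genes from *TP05520* to *TP05530* formed the longest of 170 stretches, followed by 2 stretches of 9 genes. Of the 170, only 24 held more than 1 gene. These counts describe the table and share the contrast that chose the run. Over all genes, 98 were called lower at −9 or below, 5 of them in the run. Of the 98, 45 were listed at 0 in all Δ*TP05746* libraries, where the fitted value depends on the prior count.

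Among genes with annotation at hand, which are part of those the paper called different, others with related annotation lay elsewhere by number. The list was picked by name: salicylate or hydroxybenzoate hydroxylases, a catechol dioxygenase and monooxygenases, with squalene monooxygenase left out. Enzymes with other names were not included. Of its 7 genes, 5 are named for an aromatic substrate (salicylate, hydroxybenzoate or catechol), and these were also the 5 that could be tested. In a table where 20.5% of genes were called lower, 4 of them were called lower and none higher, with a median log2 fold change of −5.12 (−5.67 without Δ*TpKu70* replicate 1, −4.19 with library totals, 4 called lower in both). The annotation came from genes that the paper had called different between the strains on these same libraries. The 20.5% over all genes tested is therefore not a like share for this list, and the direction is not independent evidence. The salicylate hydroxylase gene *TP02987*, whose product makes catechol from salicylate, had 510, 1912 and 1803 CPM in the parental replicates 1, 2 and 3 and 29.8, 32.5 and 40.0 CPM in the mutant. Its log2 fold change was −5.37 (edgeR adjusted p = 0.000973), or −5.78 without Δ*TpKu70* replicate 1. *TP00076*, of the same annotation, had 51.4 CPM in parental replicate 1 against 656 and 680 in the others, with a log2 fold change of −5.12, or −5.67 without that library. Replicate 1 was thus far below replicates 2 and 3 for both genes, yet above every mutant library. The catechol dioxygenase gene *TP05354*, whose product opens the catechol ring and whose counts have decimals, had a log2 fold change of −6.33, or −6.68 without Δ*TpKu70* replicate 1 and −7.23 without Δ*TP05746* replicate 2. The hydroxybenzoate hydroxylase gene *TP02105* had −2.98. The salicylate hydroxylase gene *TP00196* had 0.90, short of the fold minimum, but was called higher with library totals, at 1.71. *TP01839* and *TP05888*, annotated as monooxygenases with no aromatic substrate named, were too low to be tested.

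Among the genes with annotation at hand, a pair elsewhere share an annotation with a member, and genes without annotation were not searched. The GH47 gene *TP04732* was higher in Δ*TP05746*, with 2928, 1684 and 1672 expected counts there against 503, 192 and 228 in the parental strain. By edgeR the log2 fold change was 2.16 (adjusted p = 0.00553), or 2.53 without Δ*TpKu70* replicate 1. Its annotation, too, came from genes that the paper had called different on these same libraries, so this adjusted p is not independent evidence. The monocarboxylate permease gene *TP02372* was barely detected in either strain, with 5, 18 and 12 parental and 5, 7 and 3 mutant counts, and was not tested.

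The 5 genes outside the run and its flanks whose levels over the 6 libraries were closest to the median of the run were *TP08753*, *TP09805*, *TP00382*, *TP04963* and *TP03010*. Likeness was measured as Euclidean distance on log2(CPM + 1) and ranged from 1.09 to 1.62 for these genes. Distances of the members from their own median were 1.01 for *TP05521* and 2.28 to 7.49 for the other 6, so these genes lay closer to the median than most members did. *TP04963* is annotated as a gamma-glutamyltranspeptidase, an enzyme of glutathione breakdown. It went from 391 ± 154 to 4.27 ± 2.94 CPM (SD, n = 3), and its log2 fold change was −6.51, or −7.23 without Δ*TP05746* replicate 1. *TP00382* and *TP03010* were matched to hypothetical proteins, and *TP08753* and *TP09805* had no annotation at hand. The log2 fold changes of the 5 genes were between −8.04 and −6.51. The distance used the libraries of both strains, so low levels in Δ*TP05746* follow from how these genes were picked and are no separate result.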

How the data were processed

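Each library came with 1 deposited file. Expected counts were made by the authors with RSEM from reads mapped to the strain 1-95 genome and were deposited without scaling. FPKM values were computed by the authors and deposited beside them. The submitters' processing notes name RSEM 1.2.12, DESeq2, Bowtie2 2.1.0 and BWA 0.7.10-r789. The annotation version is not given in the sources used here. A gene not listed in a file was read as 0.

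Expected counts were rounded. Genes with FPKM of at least 1 in at least 3 libraries (8522) were tested across all 6 libraries with TMM factors and the two-sided quasi-likelihood test of edgeR and Benjamini-Hochberg adjustment over all of them. Standard errors were worked out from the fold change and the F statistic (size of the log2 change over the root of F), which makes them rough near a count of 0. Percentages left and their exact (Clopper-Pearson) 95% intervals come from summed counts. Tools were R 4.3.3, edgeR 4.0.16, limma 3.58.1, DESeq2 1.42.0, Python 3.11.15, SciPy 1.17.1 and pandas 2.3.3. The test was also run on simulated counts, with mean levels over all 6 libraries and spread taken from the real libraries. The outcome of that simulation is not given here, and no result rests on it. Library totals of 4091718 to 4696455 set the precision.

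The members and lists were chosen with earlier results of these data known. Named genes were the 7 members, 5 gene numbers on either side, *TP05746*, the genes of the annotation lists and the 5 nearest profiles. Annotation was taken from the first 1998 rows of a supplementary table, and the values in it were not used. Among the genes named here, none numbered above *TP05897* had annotation in these rows. The searches by annotation could thus have missed genes with higher numbers. No gene ID matched the reference table at hand, so no coordinates or sequences are given. Alternatives were other scalings, filters and pseudocounts, DESeq2, limma, no fold minimum, the replicate number as a block, genes with whole-number counts only, and each library left out. The genes of the lists were refitted with library totals and without each library, alternatives chosen after seeing the data.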

Additional observations from a re-analysis of the deposited data

How the results depend on the processing

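All 16 alternatives called at least 6 of the 7 genes of the run lower. The members were chosen on this contrast in these libraries, so this count describes dependence on the processing only and is no test. The single loss was *TP05519* with library totals or limma on log2(FPKM + 1), and *TP05521*, whose counts have decimals, could not be tested among genes with whole-number counts only. The median log2 fold change of the run was −8.88 with library totals, −8.60 with limma on log2(FPKM + 0.1), −6.62 with limma on log2(FPKM + 1), and −10.33 to −9.34 with a library left out. Of the genes numbered below the run, 2 were called with library totals, with limma at either pseudocount and without the fold minimum, and 1 to 2 with a library left out (2 without Δ*TpKu70* replicate 3). *TP05518* turned to 0.64 with library totals, 0.55 with limma on log2(FPKM + 0.1) and 0.53 with limma on log2(FPKM + 1). The TMM factors were 0.667 to 0.877 in the Δ*TpKu70* libraries and 1.31 to 1.37 in the Δ*TP05746* libraries. Fits with library totals or with limma on FPKM do not use these factors. Why the factors differ between the strains was not tested. The 4 listed genes above the run were called under each alternative that tested them.

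With the replicate number as a block, the median of the run was −9.69 and no call among the genes in and next to the run changed. Deviations of same-numbered libraries from their strain means correlated at −0.0784, −0.0379 and 0.0115 over 8522 genes, so no shared deviation by replicate number was seen. This cannot tell whether the libraries were paired by design. Counts of 1 to 9 per Δ*TP05746* library limit what can be said on the levels of *TP05522*, *TP05523* and *TP05525* there.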
